A study of Mus musculus with 6 samples.

Results

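The MHC class II genes examined here are 7 genes, H2-Aa, H2-Ab1, H2-Eb1, H2-DMa, H2-DMb1, Cd74 and Ciita, taken by gene symbol from the 11922 genes of a raw count matrix of mouse CD8+ T cells. They were selected on their counts in the vehicle and AOA libraries, with the contrast of AOA-treated against vehicle-treated cells known, so their levels and differences between the groups are given below as a description, with no test. RNA was sequenced from splenic CD8+ T cells of C57BL6/J mice that had been kept for 7 days with water as vehicle or with 0.25 mM aminoxyacetic acid (AOA), an inhibitor of enzymes that use pyridoxal 5'-phosphate. The cells of both groups were stimulated with anti-CD3/anti-CD28 beads and recombinant human IL-2 for 72 hours, then expanded in IL-2 for a further 4 days, with water or AOA present throughout. Each of 3 mice gave 1 vehicle and 1 AOA culture, so vehicle 1 and AOA 1 come from the same animal, and so on. The cells had been taken from spleen on magnetic beads against CD8 alpha, which a subset of mouse dendritic cells also carries, so a culture need not have held T cells alone.

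MHC class II molecules are dimers of an alpha and a beta chain that display peptides from the endocytic pathway to CD4 T cells. They are best known on dendritic cells, B cells and macrophages, whereas mouse T cells are regarded as expressing little of them. In the endoplasmic reticulum the chains bind the invariant chain, encoded by Cd74, whose remnant is later exchanged for peptide with the help of the H2-DM dimer, while H2-O restrains H2-DM. The coactivator CIITA, encoded by Ciita, acts with a complex on the X and Y boxes of class II promoters and is the switch for most of these genes. C57BL6/J mice make the I-A dimer (H2-Aa with H2-Ab1), and their H2-Ea promoter is deleted, so that the H2-Eb1 chain lacks its usual partner at the surface.

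Class II promoters are recognised by their boxes, and a stretch of 90 bases from the RefSeq promoter windows (GRCm38.p6) is shown for H2-Aa, H2-Eb1 and H2-DMb1, the 3 members with a single window, and for the related genes H2-Oa and H2-Ob. Each runs 5' to 3' on the strand of its gene, from 115 to 26 bases before the start site. Capitals mark the Y box core (GATTGG, or CCAATC on the other strand), the X1 box core (AGNAAC), and in H2-Aa the overlapping copies of the X2 core stretch (TGACG) on both strands. The stretches lie at chr17:34287849-34287938 on the minus strand for H2-Aa, and on the plus strand at chr17:34305752-34305841 for H2-Eb1, chr17:34153076-34153165 for H2-DMb1, chr17:34092264-34092353 for H2-Oa and chr17:34238790-34238879 for H2-Ob.
H2-Aa: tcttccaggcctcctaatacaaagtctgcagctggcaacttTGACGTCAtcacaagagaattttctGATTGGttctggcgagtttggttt
H2-Eb1: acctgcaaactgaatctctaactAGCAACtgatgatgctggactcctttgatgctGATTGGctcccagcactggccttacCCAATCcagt
H2-DMb1: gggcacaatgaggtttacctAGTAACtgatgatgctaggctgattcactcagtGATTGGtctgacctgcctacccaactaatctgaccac
H2-Oa: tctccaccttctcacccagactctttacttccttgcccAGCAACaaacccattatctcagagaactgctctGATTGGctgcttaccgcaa
H2-Ob: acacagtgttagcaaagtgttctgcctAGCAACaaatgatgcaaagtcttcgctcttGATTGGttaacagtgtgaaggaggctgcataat

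The X1 core began 32 bases before the Y core in H2-Eb1, 33 bases before it in H2-DMb1 and H2-Oa, and 30 bases before it in H2-Ob. The same arrangement, with the X1 core 15 to 35 bases before the Y core on 1 strand, was found in the windows (250 bases before to 50 after the start site) of 5 of the 8 class II genes that have one, H2-Eb2 being the other, and in 0.396% of all 32851 windows. It was not matched by these letters in H2-Aa, whose Y core stands 49 bases before the start, in H2-DMa or in H2-DMb2. Alone, the Y core was held by 16.1% of all windows, the X1 core by 48.1% and the X2 core stretch by 20.8%. A match is a description of letters and not a site of binding. H2-Ab1, Cd74 and Ciita are named only.

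Total counts had a median of 15244646 (12881962 to 18934869) in the vehicle libraries and 19546478 (18696114 to 21997078) in the AOA libraries. Vehicle 2 and AOA 1 stood apart from the other libraries of their groups: the chi-square per gene between replicates was 54.7 and 59.4 for the pairs with vehicle 2 against 9.93 for the other pair, and 70.1 and 63.5 for the pairs with AOA 1 against 10.4. Between the groups 6233 of 11759 genes tested passed an adjusted p of 0.05 (edgeR quasi-likelihood test), 3086 higher and 3147 lower with AOA. The defining genes of CD8 T cells were abundant in every library, with Cd8a at 785 ± 130 CPM (counts scaled by library size, SD, n = 3) with vehicle and 1608 ± 134 with AOA.

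Members of the family differed from one another, both in level and in direction between the groups. H2-Ab1 was lower and H2-DMa higher in every AOA library than in any vehicle library, and the groups overlapped for the other 5 members. Of the 7 members 6 passed the filter on low counts, and 1 of these, H2-Ab1, passed the threshold of the fit across all genes, against 53.0% of all genes tested in either direction and 26.8% in the lower direction. The groups did not overlap for 2 of the 6, against 62.1% of all genes tested. With the mouse as a block 3 of the 6 passed (H2-Ab1, H2-DMa and Cd74), against 53.5% of all genes. Without vehicle 2 it was 2 of the 6 (H2-Ab1 and H2-DMa), against 57.6%. As the members were chosen with this contrast known, nothing is read from these counts.

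**Figure D1:**
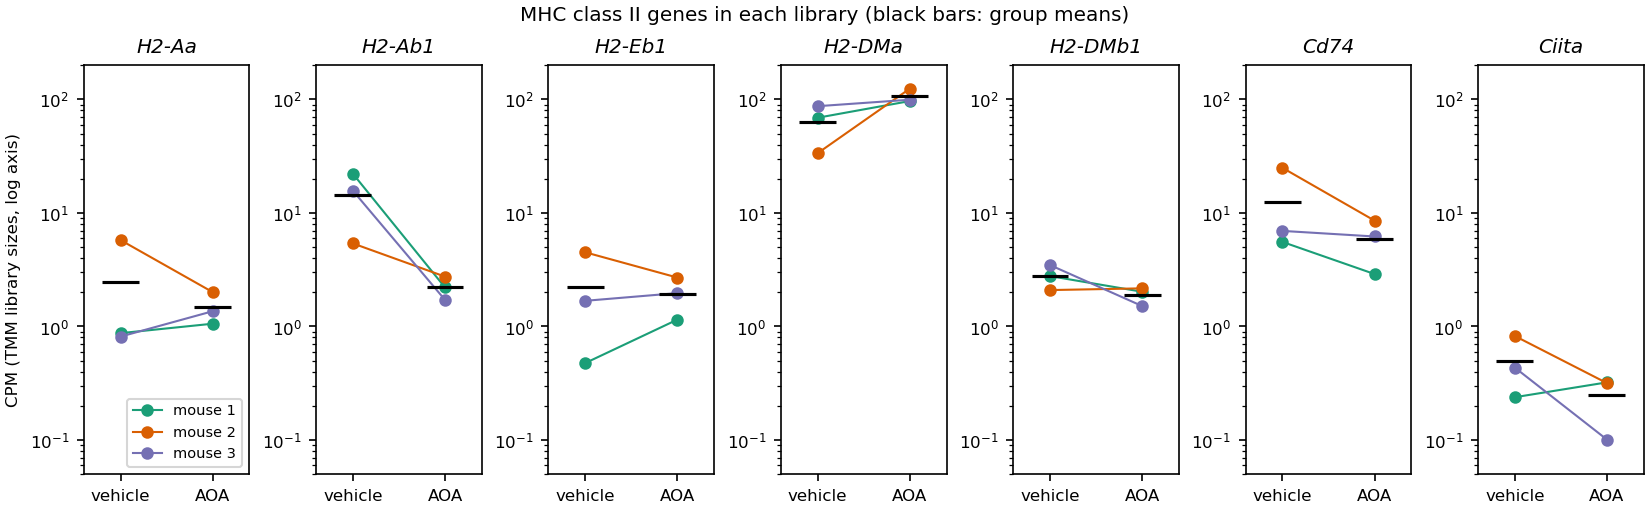
Level of each class II gene in CPM, with TMM library sizes and on a log axis, in the 3 vehicle and 3 AOA libraries; lines join the cultures of 1 mouse and black bars are group means. H2-Ab1 is below and H2-DMa above the vehicle range in all 3 AOA libraries, while mouse 2 gives the highest vehicle point for H2-Aa, H2-Eb1, Cd74 and Ciita.

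H2-Ab1, the beta chain of I-A (Entrez 14961, chr17:34263227-34269418, plus strand), had 279, 85 and 289 counts in vehicle 1, 2 and 3 and 48, 52 and 34 in AOA 1, 2 and 3. In CPM these were 22.1, 5.39 and 15.7 with vehicle and 2.21, 2.75 and 1.71 with AOA. Vehicle 2 was the lowest vehicle library, and all 3 AOA libraries lay below it. The mean was 14.4 ± 8.45 CPM with vehicle and 2.22 ± 0.517 with AOA (SD, n = 3), a log2 fold change of -2.69 (SE 0.47). It was between -3.05 and -2.22 when any 1 library was left out. Within mouse 1 the log2 difference between AOA and vehicle was -3.33, within mouse 2 it was -0.97 and within mouse 3 it was -3.19. In bulk RNA fewer cells of a type and less RNA per cell cannot be told apart.

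H2-Aa, the alpha chain that pairs with H2-Ab1 in I-A (Entrez 14960, chr17:34282744-34287823, minus strand), did not follow its partner. Its counts were 11, 91 and 15 with vehicle and 23, 38 and 27 with AOA, which is 0.873, 5.77 and 0.814 CPM against 1.06, 2.01 and 1.36 CPM. Vehicle 2, the lowest vehicle library for H2-Ab1, was by far the highest for H2-Aa, and the other vehicle libraries lay below every AOA library. The log2 fold change of H2-Aa was -0.76 (SE 0.70) over all libraries and 0.83 without vehicle 2, so its direction rests on that library. The log2 difference between AOA and vehicle was 0.28 within mouse 1 and 0.74 within mouse 3, against -1.52 within mouse 2.

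H2-Eb1, the beta chain of I-E (Entrez 14969, chr17:34305867-34316674, plus strand), had 6, 71 and 31 counts with vehicle and 25, 51 and 39 with AOA. These correspond to 0.476, 4.50 and 1.68 CPM and to 1.15, 2.70 and 1.97 CPM, with vehicle 2 again at the top. The AOA values lay inside the vehicle range, and the log2 fold change was -0.22 (SE 0.64). It was 0.79 without vehicle 2, 0.06 without AOA 1 and 0.05 with the mouse as a block, so no direction can be given. An antisense transcript, Gm20513, overlaps H2-Eb1 in the GENCODE annotation, and no source read here gives the strand setting of the counting.

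The makeup of the classical class II transcripts therefore differed among libraries. H2-Ab1 gave 96.2% (exact binomial 95% interval 93.3 to 98.1) of the summed H2-Ab1 and H2-Aa counts in vehicle 1 and 95.1% (92.0 to 97.2) in vehicle 3, but 48.3% (40.7 to 55.9) in vehicle 2. In the AOA libraries its share was 67.6% (55.5 to 78.2), 57.8% (46.9 to 68.1) and 55.7% (42.4 to 68.5). Vehicle 1 and vehicle 3 thus stood above the other 4 libraries without any overlap of intervals, which cover counting error only. Per kb of gene length, H2-Ab1 was 22.7 times the level of H2-Aa in vehicle 1 and 17.3 times in vehicle 3, against 0.837 times in vehicle 2 and 1.87, 1.23 and 1.13 times in AOA 1, 2 and 3. The alpha and beta chain transcripts of I-A were thus of similar level in 4 libraries, and in vehicle 1 and 3 the beta chain transcript was in large excess. Whether other cells or T cells carried these transcripts was not tested.

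**Figure D2:**
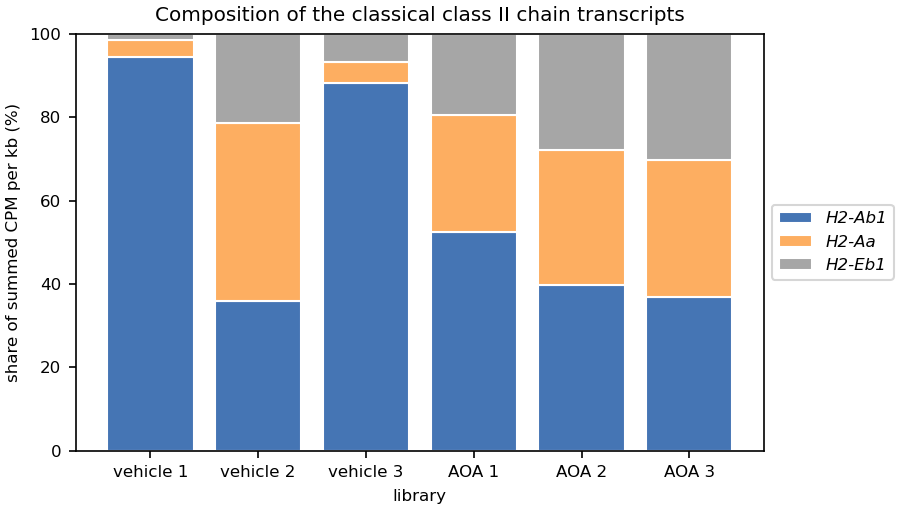
Share of H2-Ab1, H2-Aa and H2-Eb1 in their summed level per library, as CPM per kb of gene length in percent. H2-Ab1 takes 94.4% in vehicle 1 and 88.1% in vehicle 3, against 35.8% in vehicle 2 and 37.0% to 52.4% in the AOA libraries.

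Cd74, the invariant chain (Entrez 16149, chromosome 18), had 70, 394 and 128 counts with vehicle and 63, 162 and 123 with AOA. Its CPM values were 5.56, 25.0 and 6.95 with vehicle and 2.90, 8.56 and 6.20 with AOA, so that vehicle 2 held the highest value and the groups overlapped. The log2 fold change was -1.09 (SE 0.58), and it shrank to -0.06 without vehicle 2. Each mouse had less Cd74 with AOA than with vehicle, by log2 differences of -0.94, -1.54 and -0.16, and in both groups the order was mouse 1, then mouse 3, then mouse 2. H2-Eb1 had the same order of mice in both groups.

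H2-DMa, the alpha chain of the peptide exchange factor H2-DM (Entrez 14998, chr17:34119693-34139101, plus strand), was the most abundant member. It had 869, 530 and 1606 counts with vehicle and 2104, 2353 and 1971 with AOA, or 69.0, 33.6 and 87.2 CPM against 96.7, 124 and 99.4 CPM. All AOA libraries lay above all vehicle libraries, though AOA 1 exceeded vehicle 3 by little. The mean went from 63.2 ± 27.2 CPM with vehicle to 107 ± 15.2 with AOA (SD, n = 3), a log2 fold change of 0.76 (SE 0.29). The fold change was 0.49 without vehicle 2 and 1.09 without vehicle 3. Its gene model overlaps Brd2 on the opposite strand and the same-strand transcript CR974462.3, and the log2 fold change of Brd2, a much more abundant neighbour that encodes a bromodomain protein, was -0.17 (SE 0.14).

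H2-DMb1, a beta chain of H2-DM (Entrez 14999, chr17:34153191-34160229, plus strand), stayed low while its alpha chain was high. Its counts were 35, 33 and 64 with vehicle and 44, 41 and 30 with AOA, which gave 2.78, 2.09 and 3.47 CPM against 2.02, 2.17 and 1.51 CPM. The groups overlapped, and the log2 fold change was -0.55 (SE 0.31). H2-DMb1 and H2-DMb2 are near-identical copies, so how uniquely mapped reads divide between them is uncertain.

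Ciita, the class II transactivator (Entrez 12265, chr16:10480014-10531064), was the lowest of the members. Its counts were 3, 13 and 8 with vehicle and 7, 6 and 2 with AOA, at most 0.824 CPM, which was the value in vehicle 2. Summed over the group it had 24 counts with vehicle, or 0.513 CPM (exact Poisson 95% interval 0.329 to 0.763), and 15 with AOA, or 0.248 CPM (0.139 to 0.409). The intervals overlapped, and Ciita did not pass the filter and was not tested.

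Per kb of gene length, H2-DMa stood highest in both groups, with a mean of 38.1 CPM per kb with vehicle and 64.4 with AOA. With vehicle it was followed by H2-Ab1 at 12.1, Cd74 at 8.83, H2-Aa at 2.33, H2-DMb1 at 2.17, H2-Eb1 at 1.33 and Ciita at 0.0832. Without vehicle 2 the vehicle means were 4.42 for Cd74, 2.43 for H2-DMb1, 0.789 for H2-Aa and 0.647 for H2-Eb1, so that the places of H2-Aa and H2-DMb1 in this order rest on vehicle 2. With AOA the order was Cd74 at 4.16, H2-Ab1 at 1.86, H2-DMb1 at 1.48, H2-Aa at 1.38, H2-Eb1 at 1.16 and Ciita at 0.0411. In either order the libraries of H2-DMa did not overlap those of the next member, nor those of Ciita the member before it, and all other neighbours overlapped. Among all genes tested, the mean CPM over the libraries of both groups together was at the 76.1 percentile for H2-DMa. It was at 24.2 for Cd74, 23.0 for H2-Ab1 and between 8.94 and 10.1 for the other 3 tested members.

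Most of the 6 tested members varied widely within the vehicle group. The highest vehicle library was 9.45 times the lowest for H2-Eb1, 7.09 times for H2-Aa, 4.50 times for Cd74 and 4.11 times for H2-Ab1, where the median over all tested genes was 1.31 and the 95th percentile 2.96. H2-DMa and H2-DMb1 lay below that percentile, at 2.59 and 1.66. Within the AOA group the ratios of the 6 were smaller, between 1.29 for H2-DMa and 2.96 for Cd74, with a median of 1.31 and a 95th percentile of 2.14 over all tested genes. Cd74 and H2-Eb1, at 2.35, lay above that percentile. For Ciita, which was not tested, the ratio was 3.46 with vehicle and 3.19 with AOA. The lowest H2-Eb1 value rests on 6 counts and the lowest Ciita value on 2.

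Set against the sum of the classical chains per kb, H2-DMa stood at a log2 ratio of 1.19 ± 0.57 with vehicle and 3.90 ± 0.18 with AOA (SD, n = 3). Cd74 stood at -1.15 ± 1.46 with vehicle, or -1.96 without vehicle 2, and at -0.18 ± 0.52 with AOA. H2-DMb1 stood at -2.87 ± 0.37 with vehicle and -1.56 ± 0.34 with AOA. The ratios of Cd74 to the classical chains overlapped between the groups, while those of H2-DMa and of H2-DMb1 did not overlap and were higher with AOA. The sum they are divided by was mostly H2-Ab1 in vehicle 1 and 3, and H2-Ab1 was lower with AOA, as was the mean level of H2-DMb1 itself. Over the 6 libraries the profiles of H2-Aa, H2-Eb1 and Cd74 were near one another, with root mean square distances between centred log2 CPM of 0.48 for H2-Aa and Cd74, 0.56 for H2-Aa and H2-Eb1 and 0.67 for H2-Eb1 and Cd74. H2-Ab1 was far from its partner H2-Aa, at 1.86, and nearest among the members to H2-DMb1, at 1.07. These distances share libraries, depth and low counts and are a description.

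The genes whose profile was most like the mean of the 6 tested members were AI661453 and Rnpep, with distances of 0.10 each, then, among others, Il2rb, Aldh7a1, Fah, Capn2, Zc3h12d, Nlrx1 and Syt11, up to 0.14. The members themselves lay farther from their own mean, from 0.42 for H2-DMb1 to 1.28 for H2-Ab1, and between 0 and 6 of these 10 genes were found again when 1 library was left out. For single members, chosen after their values were seen, the nearest genes were Cdk14 (0.24) for H2-Aa, Vps37b (0.23) for H2-Ab1, Syk (0.31) for H2-Eb1, Oscp1 (0.10) for H2-DMa, A230056P14Rik (0.09) for H2-DMb1 and Pkd2 (0.18) for Cd74.

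Among the other chains encoded in the class II region, H2-Oa was lower with AOA. Of 3 such genes analysed here (H2-Oa, H2-Ob and H2-DMb2) 1 fell and 2 did not pass the threshold, where 26.8% of all genes tested fell. The median log2 fold change was -1.23 against -0.02 over all genes tested. H2-Ea, H2-Ea-ps and H2-Eb2 had no row in the counts analysed. H2-Oa, the alpha chain of the H2-DM inhibitor H2-O, had 664, 541 and 1400 counts with vehicle and 467, 444 and 485 with AOA, or 52.7, 34.3 and 76.0 CPM against 21.5, 23.5 and 24.5 CPM. It fell by 1.23 on the log2 scale (SE 0.25, edgeR adjusted p = 0.00321), with every AOA library below every vehicle library. The antisense transcript BC051537 overlaps H2-Oa and also fell (log2 fold change -1.19, SE 0.27, edgeR adjusted p = 0.00495), and without a stated strand setting their reads cannot be told apart.

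H2-Ob, the beta chain of H2-O, was at 18.1, 4.50 and 22.8 CPM with vehicle and 7.45, 5.66 and 6.05 CPM with AOA. Vehicle 2 lay below all AOA libraries, the log2 fold change was -1.24 (SE 0.47), and the edgeR adjusted p was 0.0508, or 0.0476 with the mouse as a block. Without vehicle 2 the log2 fold change was -1.64 and the edgeR adjusted p 1.32e-04. H2-DMb2 had 3.73, 1.27 and 4.78 CPM with vehicle and 1.65, 1.96 and 1.66 with AOA (log2 fold change -0.89, SE 0.44, edgeR adjusted p = 0.120, and 0.00335 without vehicle 2). Within the vehicle group the members H2-Ab1, H2-DMa and H2-DMb1, like H2-Oa, H2-Ob and H2-DMb2, were lowest in vehicle 2, whereas H2-Aa, H2-Eb1, Cd74 and Ciita were highest there. H2-Ab1 made up 55.0% (exact binomial 95% interval 50.6 to 59.4), 54.5% (46.3 to 62.5) and 40.8% (37.1 to 44.5) of the summed H2-Ab1 and H2-Ob counts with vehicle, and 22.9% (17.4 to 29.1), 32.7% (25.5 to 40.6) and 22.1% (15.8 to 29.5) with AOA. The intervals of this share overlapped between vehicle 1 and 2 and did not overlap between vehicle 1 and 3, whereas those of the share against H2-Aa overlapped between vehicle 1 and 3 and not between vehicle 1 and 2.

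Along the 224 kb from H2-Oa to H2-Eb1, genes with higher and lower levels with AOA lay side by side. Of 15 RefSeq genes that lie in this stretch or overlap it, 14 were tested. Of these 1 rose and 4 fell, where 26.2% of all genes tested rose and 26.8% fell. Nothing particular to the region is read from these counts. Psmb8, an immunoproteasome subunit, rose by 0.44 on the log2 scale (SE 0.14, edgeR adjusted p = 0.0263), and Tap1, a subunit of the peptide transporter for class I molecules, fell by 0.86 (SE 0.21, edgeR adjusted p = 0.00839). The genes that fell were otherwise BC051537, H2-Oa and the member H2-Ab1. H2-DMa lies between Brd2 and H2-DMb2, whose fold changes had the opposite sign to its own.

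**Figure D3:**
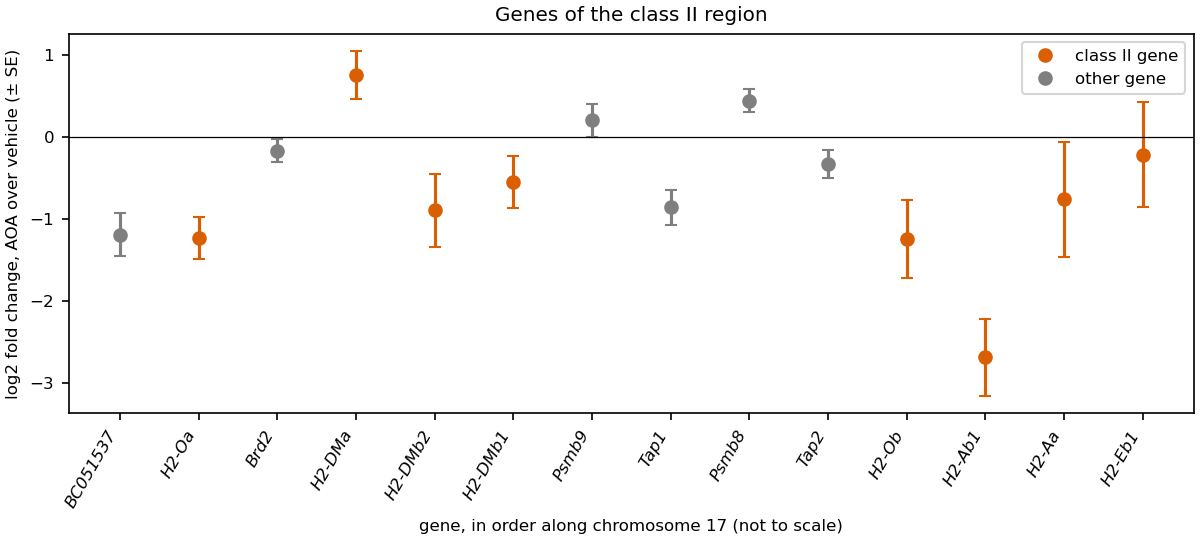
Log2 fold change of AOA over vehicle, with its SE, for the 14 tested genes of the class II region in their order along chromosome 17 (not to scale); orange points are class II genes and grey points other genes. H2-Ab1 stands lowest at -2.69 and H2-DMa highest at 0.76.

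Genes that process antigen for class II molecules or turn them over moved in both directions. Of 8 genes tested 2 rose and 1 fell, where 26.2% of all genes tested rose and 26.8% fell, and the median log2 fold change was -0.15. Ifi30, the lysosomal thiol reductase that unfolds antigens, rose from 31.0 ± 1.98 to 55.6 ± 9.37 CPM (log2 fold change 0.84, SE 0.15, edgeR adjusted p = 0.00174). Sppl2a, the protease that cleaves the last fragment of the invariant chain, rose by 0.46 (SE 0.16, adjusted p = 0.0367), and Ctsl, a cathepsin that degrades the invariant chain, fell by 0.93 (SE 0.33, adjusted p = 0.0378). In both cases the call was lost on leaving out vehicle 1, vehicle 3 or any AOA library, and that of Ctsl also with limma voom (log2 fold change -0.83, adjusted p = 0.0644).

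Ctss, the main cathepsin of invariant chain processing in antigen-presenting cells, had a log2 fold change of 0.25 (adjusted p = 0.276, and 0.0230 without vehicle 3), Ctsb 0.01, Lgmn -0.94 and Cd83 -0.78, none past the threshold in edgeR. Marchf8, a ubiquitin ligase that removes class II molecules from the surface, had the vehicle pattern of H2-Aa, with 1.67, 9.64 and 2.17 CPM, and 3.22, 4.33 and 3.33 CPM with AOA. Its log2 fold change was -0.31 over all libraries and 0.93 without vehicle 2 (edgeR adjusted p = 0.673 and 0.0212). Ctsh, another cathepsin, did not pass the filter, with 4, 64 and 13 counts with vehicle and 5, 5 and 2 with AOA. Marchf1 had no row in the counts analysed.

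**Figure D4:**
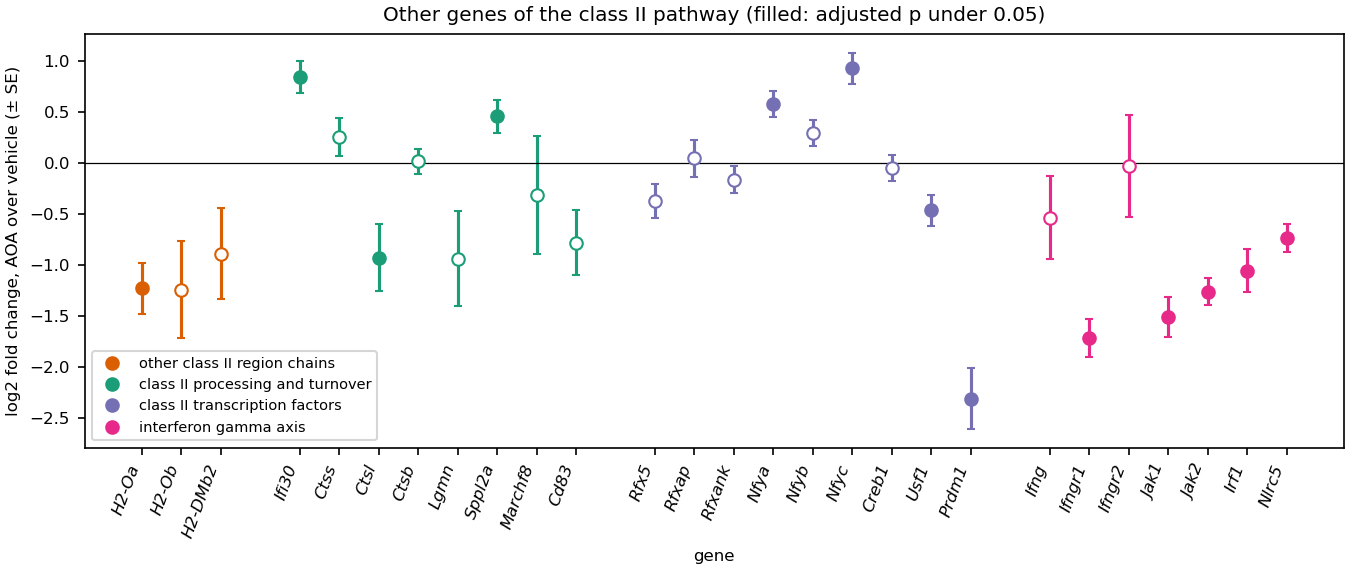
Log2 fold change of AOA over vehicle, with its SE, for the other genes of the class II pathway that were tested, coloured by list; filled points have an edgeR adjusted p under the threshold. The interferon gamma axis holds 5 filled points, which lie below 0, while the transcription factors have 2 filled points on each side.

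Among the factors that act on class II promoters or on Ciita, 2 of 9 rose and 2 fell, where 26.2% of all genes tested rose and 26.8% fell, and the median log2 fold change was -0.05. The Y box binding subunits Nfyc and Nfya rose by 0.93 (SE 0.16, edgeR adjusted p = 0.00110) and 0.58 (SE 0.13, edgeR adjusted p = 0.00527), and Nfyb had 0.29 (adjusted p = 0.0786). The X box binding subunits were measured at -0.37 for Rfx5, 0.04 for Rfxap and -0.17 for Rfxank, and Creb1 at -0.05, none past the threshold in edgeR. Prdm1, which encodes Blimp-1, a repressor of Ciita in plasma cells, fell from 26.5 ± 8.03 to 5.34 ± 1.92 CPM (log2 fold change -2.31, SE 0.30, edgeR adjusted p = 2.77e-04). Usf1, which binds a Ciita promoter, fell by 0.47 (SE 0.15, edgeR adjusted p = 0.0293), a call lost on leaving out vehicle 1, vehicle 3, AOA 2 or AOA 3.

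Interferon gamma induces Ciita in many cells through its receptor, the kinases JAK1 and JAK2, and IRF1. Of 7 genes of this axis 5 fell and 2 did not pass the threshold, with a median log2 fold change of -1.06, where 26.8% of all genes tested fell. Ifngr1, the ligand-binding receptor chain, fell from 1817 ± 307 to 553 ± 58.2 CPM (log2 fold change -1.72, SE 0.19, edgeR adjusted p = 1.20e-04). Jak1, Jak2 and Irf1 fell, with log2 fold changes of -1.51, -1.26 and -1.06, each with no overlap between the groups. Nlrc5, the CIITA relative that acts on class I genes, fell by 0.74 (SE 0.14, edgeR adjusted p = 0.00175).

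Ifng itself, the cytokine gene, had a log2 fold change of -0.54 (edgeR adjusted p = 0.293) and 0.05 without vehicle 2. Ifngr2, the second receptor chain, was at 31.4, 6.09 and 39.7 CPM with vehicle and 26.8, 24.7 and 24.0 with AOA. Vehicle 2 was far below the other 5 libraries for Ifngr2, and without it the log2 fold change of Ifngr2 was -0.47 (edgeR adjusted p = 0.0253) where it was -0.03 over all libraries.

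Markers of other cells that carry class II molecules were measured in the same libraries, and some moved with the groups. Over all genes tested 26.2% rose and 26.8% fell, and nothing particular to a marker list is read from how many of its genes did. Of 16 B cell markers 7 were analysed here, and their summed level was 65.2 to 70.2 CPM with vehicle and 53.0 to 61.5 with AOA, most of it Cd72 and Cd79b. Cd79b rose, with a log2 fold change of 1.01, and Cd72 and Cd22 fell, with log2 fold changes of -0.80 and -1.67. Of the defining B cell genes, Cd79a had 0.794, 2.28 and 1.19 CPM with vehicle and 0.873, 1.00 and 1.16 with AOA. Within the vehicle group 4 of the 7 (Cd79a, Ms4a1, Cd22 and Spib) were highest in vehicle 2, whereas Cd72 (54.5, 45.6 and 50.9 CPM) and Bank1 (1.75, 1.01 and 2.28 CPM) were lowest there. Ms4a1 had 6, 18 and 16 counts against 24, 16 and 18. Pax5 and the other listed B cell markers not analysed had no row in the counts, so their levels are not known here.

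Of 11 conventional dendritic cell markers 5 were analysed here, with a summed level of 172 to 212 CPM with vehicle and 159 to 207 with AOA, most of it Snx22. Xcr1, the defining receptor of the dendritic cells that carry CD8 alpha in mouse spleen, had 4.37, 5.26 and 4.56 CPM with vehicle and 1.29, 0.687 and 1.16 with AOA, and fell by 2.17 (SE 0.32, edgeR adjusted p = 5.62e-04). Itgax, which activated T cells also express, fell by 4.70 (SE 0.38, edgeR adjusted p = 2.86e-05). Wdfy4 had 4, 54 and 16 counts with vehicle and 8, 11 and 28 with AOA, its highest value in vehicle 2. The other defining dendritic cell markers, Clec9a, Zbtb46 and Flt3, had no row in the counts analysed, nor had Siglech, the defining marker of plasmacytoid dendritic cells. Their levels are not known here. For that list Ccr9, which T cells also use, rose by 2.60 (3.87 without vehicle 3), and the sum of its 2 genes analysed here was 4.95 to 14.4 CPM with vehicle and 12.6 to 17.2 with AOA.

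Of 17 macrophage and monocyte markers 6 were analysed here and summed to 20.3 to 26.7 CPM with vehicle and 4.96 to 7.88 with AOA. Cd68 fell, with a log2 fold change of -1.91. Fcgr3 had 3.73, 10.2 and 3.58 CPM with vehicle and 0.0919, 0.846 and 0.151 with AOA, highest in vehicle 2, and fell with a log2 fold change of -4.02, which was -3.32 without vehicle 2 and -5.51 without AOA 2. Lyz2 had 0, 5 and 0 counts with vehicle and 6, 22 and 2 with AOA. The defining markers Csf1r, Adgre1 and C1qa had no row in the counts analysed. Mast cell and basophil genes, which are not class II genes, were again highest in vehicle 2: Cpa3 had 60, 309 and 49 counts with vehicle and 9, 11 and 2 with AOA, and Mcpt8 had 0, 53 and 2 against 1, 2 and 0. The 2 genes of that list analysed here, of 11, summed to 2.77 to 22.9 CPM with vehicle and 0.101 to 0.687 with AOA, and the part of such cells in the class II levels was not tested.

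Of the 4 CD4 T cell markers 3 fell, where 26.8% of all genes tested fell, and the sum of all 4 was 158 to 210 CPM with vehicle and 33.0 to 54.3 with AOA. Cd4, Zbtb7b and Cd40lg fell, with log2 fold changes of -3.08, -2.17 and -2.58, while Foxp3 had 0.36 and did not pass. The 2 of 5 NK cell markers analysed here summed to 20.1 to 114 CPM with vehicle, highest in vehicle 2, and 3.53 to 11.6 with AOA. Klrb1c had a log2 fold change of -3.02, or -2.07 without vehicle 2, and fell in both cases, and Ncr1 had 0, 37 and 0 counts with vehicle and 5, 11 and 3 with AOA. For stromal and endothelial cells Pecam1 and Pdgfrb, 2 of 7 listed, both fell (26.8% of all genes tested fell). Their sum was 110 to 142 CPM with vehicle and 39.4 to 54.8 with AOA, most of it Pecam1 (106, 108 and 139 CPM with vehicle). The defining markers Col1a1 and Cdh5 had no row in the counts analysed, nor had any listed erythroid marker.

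The summed level of the CD8 T cell markers was 4666 to 5798 CPM with vehicle and 5591 to 6485 with AOA. Of 9 markers Cd8a and Cd8b1 rose, by 1.03 and 0.64 on the log2 scale, and Cd2 and Cd5 fell, while Cd3e had -0.27 and did not pass. Among all genes tested the shares were 26.2% and 26.8%. Without AOA 3 only Cd8a passed of these 4, and the call of Cd2 was also lost without vehicle 3 or AOA 2. Like H2-Aa, H2-Eb1 and Cd74, the summed markers of macrophages and monocytes, conventional dendritic cells, granulocytes and mast cells, and NK cells were highest in vehicle 2 within the vehicle group, while those of B cells and plasmacytoid dendritic cells were lowest there. Not every gene followed the sum of its list. Among macrophage and monocyte markers Fcgr3 was highest in vehicle 2 (3.73, 10.2 and 3.58 CPM), but Cd68 was lowest there (15.2, 13.3 and 14.7 CPM). Among B cell markers Cd79a, Ms4a1, Cd22 and Spib were highest in vehicle 2, and Cd72 and Bank1 lowest. The markers of other cells fell, where they did, in the same comparison in which H2-Ab1 was lower and H2-DMa higher, and their part in those differences was not tested.

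**Figure D5:**
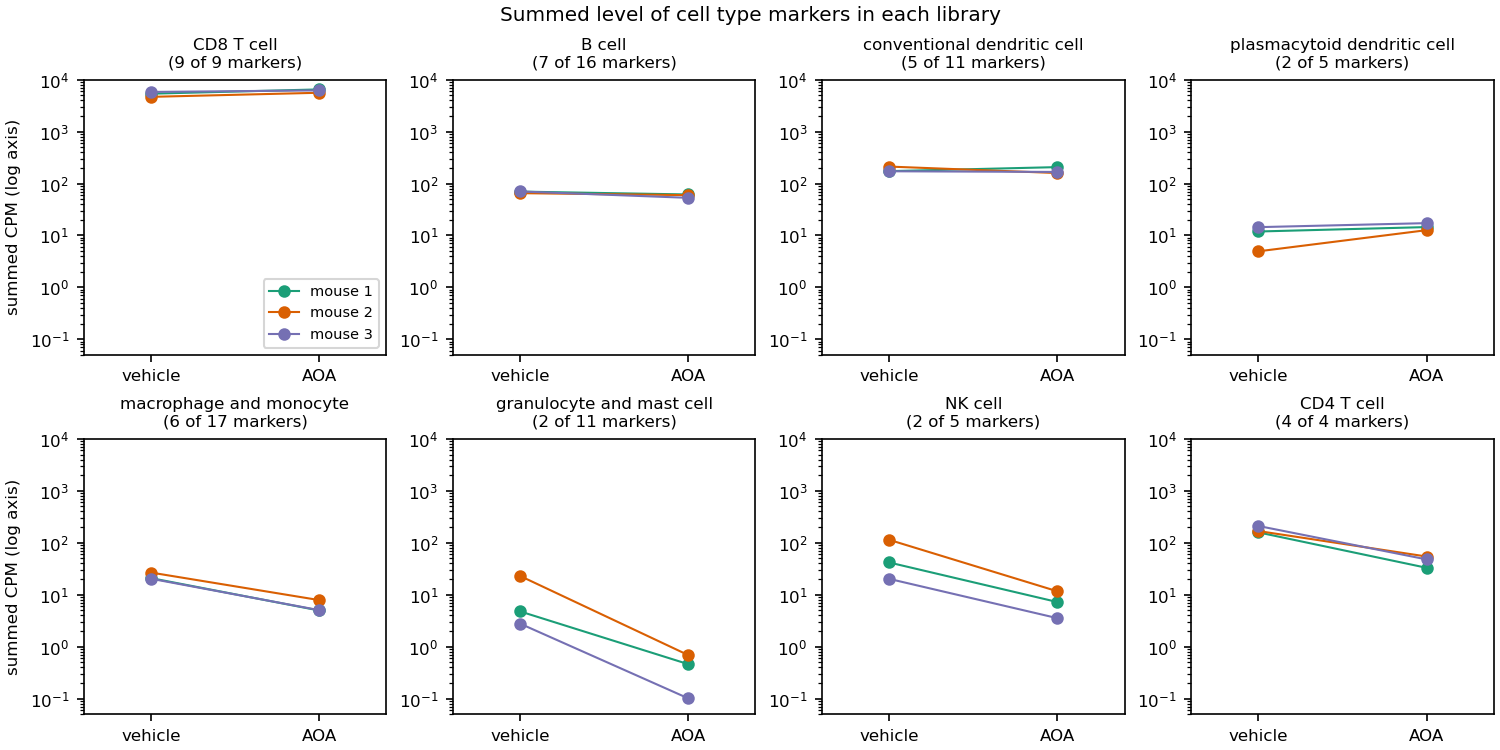
Summed CPM of the markers of each cell type in the vehicle and AOA libraries on a log axis, with lines joining the cultures of 1 mouse and the number of markers analysed of those listed above each panel. B cell sums, mostly Cd72 and Cd79b, are 65.2 to 70.2 CPM with vehicle and 53.0 to 61.5 with AOA. Conventional dendritic cell sums, mostly Snx22, overlap, while Xcr1 and Itgax of that list do not. Macrophage, granulocyte, NK and CD4 T cell sums are lower with AOA. Vehicle 2 has the highest vehicle sum for macrophages and monocytes (26.7 CPM), conventional dendritic cells (212 CPM), granulocytes and mast cells and NK cells, and the lowest for B cells, plasmacytoid dendritic cells and CD8 T cells. Single genes of the macrophage and monocyte list (Cd68) and of the B cell list (Cd79a, Ms4a1, Cd22 and Spib) do not follow these sums.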

How the data were processed

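The authors aligned paired-end reads of stranded mRNA libraries with STAR (default settings), counted those that mapped uniquely and deposited the raw count of each gene beside its Entrez number, symbol and length. The submitters' processing notes also name bcl2fastq, featureCounts, DESeq2 and the build mm10, without versions. The strand setting and the filter behind the 11922 genes are given by no source read here. Of the symbols 18 read as dates and 1 was blank, so rows were kept apart by Entrez number, and such symbols were replaced from RefSeq by that number where possible. Members and listed genes were then taken by symbol or, where none matched, through the RefSeq symbol or synonym. At 0 everywhere were 4 genes. No column of values was left without a sample (0).

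From these counts edgeR 4.0.16 (R 4.3.3) was run with filterByExpr (minimum count 10), TMM and the robust quasi-likelihood test by treatment, with Benjamini-Hochberg adjustment over 11759 genes and a threshold of 0.05. CPM uses TMM library sizes, and profile distances use log2 CPM with a prior count of 2. For a single value, 3 libraries against 3 cannot give an exact permutation p below 0.1, so none was run. Intervals have a confidence level of 95% and cover counting error only. Alternatives were limma 3.58.1 (voom), DESeq2 1.42.0, no low-count filter, scaling by total counts only or by median-of-ratios size factors, counts without division by length, a prior count of 0.5, the mouse as a replicate block and each library left out. The pairing comes from the mouse numbers in the labels. Deviations from the group means correlated within mice 1, 2 and 3 with r of 0.0868, 0.189 and 0.194 across genes, which are not independent replicates. Replicates differed by more than sampling noise and each was counted.

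Members and gene lists were chosen with earlier results of these data known. Named were, except for a few genes that are not reported here, all 7 members, every gene of the 4 pathway lists, the defining markers, called markers of at least 1 CPM in a group, and the 10 genes nearest to the members' mean profile. Wdfy4, Snx22, Bank1, Spib and genes of the class II region stand beside them for their pattern or position and were chosen after their values were seen. Promoter windows and gene positions are from RefSeq GRCm38.p6, and overlaps from GENCODE vM21. The fits were also run on simulated counts with known changes in few genes and no mouse effect, a setting unlike these data.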

Additional observations from a re-analysis of the deposited data

How the results depend on the processing

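The direction of H2-Ab1 and H2-DMa was kept under every alternative run. The number of members past the threshold was 1 in edgeR and 2 with DESeq2, limma voom, no low-count filter, scaling by total counts only or scaling by median-of-ratios size factors, the second being H2-DMa in each, and it was 3 with the mouse as a replicate block and 1 to 2 when a library was left out. Of the other class II chains 2 were called in place of 1 with DESeq2, total counts only or the replicate block, and 1 to 3 on leaving out a library, the 3 being without vehicle 2. Of the processing genes 1 to 4 were called on leaving out a library, 1 without any AOA library, and of the CD8 T cell markers 1 to 5, 1 without AOA 3. Of the granulocyte and mast cell markers 2 were called with DESeq2 and without the filter. The other counts of called genes stayed within 1.5 times, and the replicate block changed no other list's count by more. Of the 10 genes nearest to the members' mean profile 0 to 6 were kept on leaving out a library.

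Direction was not stable for H2-Aa (-1.17 to 0.83 on leaving out a library) or H2-Eb1 (0.13 with limma voom, 0.055 with the replicate block, -0.65 to 0.79 on leaving out a library), and the cause was not tested. The same holds for Marchf8 (0.10 with limma voom, 0.053 with the replicate block, -0.68 to 0.93), Ifngr2 (0.35, 0.26 with the replicate block, 0.000433 with total counts only, 0.0024 without the filter, -0.47 to 0.47), Rfxap (-0.082 to 0.17), Creb1 (-0.10 to 0.034), Ifng (-0.85 to 0.052), Cd79a (-0.75 to 0.028) and Ms4a1 (-0.048 to 0.49). Among the members depth limits Ciita most, with 24 and 15 counts per group, then H2-Aa and H2-Eb1, whose lowest libraries hold 11 and 6 counts.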
